A study of Mus musculus with 6 samples.

Results

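The 10 genes described here encode the vascular endothelial growth factor (VEGF) and angiopoietin ligands and receptors Vegfa, Vegfb, Vegfc, Kdr, Flt1, Flt4, Angpt1, Angpt2, Tek and Tie1. They were listed by name as members of these families, with earlier results of the data known, and are 10 of the 27998 genes in each of 6 single-cell count matrices of mouse aorta. Of the 6 samples, 3 were labelled control and 3 high-fat diet. The design text gives the control diet as normal diet. All 6 came from C57B/6J mice of 18 weeks, so strain and age were shared. The composition and length of the diet, any lesion in the vessel, and whether a sample was 1 animal or several were not given in the sources used here. The p-values below therefore measure the spread between samples, which may be technical. Single-cell suspensions had been made by collagenase digestion and captured in droplets with 3′ transcript tags. Each value counts unique molecular identifiers (UMIs), 1 for each captured RNA molecule.

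VEGF ligands are secreted proteins that act on receptor tyrosine kinases of vascular cells. VEGF-A signals mainly through VEGFR2 (Kdr), which drives endothelial survival, permeability and migration, while VEGFR1 (Flt1) binds VEGF-A and VEGF-B tightly and often serves as a trap. VEGF-C acts on VEGFR3 (Flt4), the receptor that lymphatic vessels need in order to grow. Angiopoietin-1 activates the Tie2 receptor (Tek) and keeps vessels quiescent, angiopoietin-2 can oppose it, and Tie1 is a related receptor that modulates Tie2. In a large artery the endothelium lines the lumen, smooth muscle fills the media, and the adventitia around it holds fibroblasts, small feeding vessels and lymphatics.

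Cells were grouped into classes from marker genes, and every class name below is a rebuilt name that stands for cells like that type. After filtering, 58386 cells remained, of which 57040 fell in a named class. Total UMIs per sample ran from 41388034 to 83886418 and the median per cell from 3856 to 5955. The endothelial class held 327, 449 and 629 cells in the control samples and 583, 562 and 866 cells in the high-fat diet samples. The summed level of 8 endothelial markers lay between 4932 and 5933 CPM in that class, and between 103 and 192 CPM in fibroblasts. CPM here is the UMIs of a gene per 1000000 UMIs of all cells of the class in 1 sample. Libraries shared between 1 and 117 cell barcodes with each other. Of the 54 clusters, 7 drew over 90% of their cells from control 1 (2 fibroblast clusters, 1 each of smooth muscle, macrophage and pericyte, and 2 that stayed unnamed) and 1, of smooth muscle, from control 3.

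For Kdr, Flt1 and Tek the 250 bases before the RefSeq start (build GRCm38.p6) are shown first. All 3 were highest in the endothelial class. Between its capillary-like subcluster EC0 and its arterial-like subcluster EC1, described below, Tek ran against Kdr and Flt1. In the lymphatic-like subclusters Kdr and Flt1 did not run together. Capitals mark GGAAG on either strand (CTTCC on the reverse), a form of the core that ETS-family transcription factors bind. Other forms of that core were not searched and can lie unmarked in these windows. The windows are Kdr chr5:75978456-75978705 (minus strand), Flt1 chr5:147726012-147726261 (minus) and Tek chr4:94739039-94739288 (plus), each printed 5′ to 3′ along its gene. The same windows of Flt4 (chr11:49609429-49609678, plus) and Tie1 (chr4:118489850-118490099, minus) are not printed, since they lie wholly or mostly inside the first exon of the GENCODE vM21 gene models, which start further upstream. For these genes a match need not lie before the start of transcription.
Kdr: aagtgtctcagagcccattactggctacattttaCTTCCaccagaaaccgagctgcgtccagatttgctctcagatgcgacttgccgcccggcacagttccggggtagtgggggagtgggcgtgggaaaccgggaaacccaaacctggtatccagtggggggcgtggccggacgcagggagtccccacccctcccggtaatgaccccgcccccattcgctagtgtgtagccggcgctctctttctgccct
Flt1: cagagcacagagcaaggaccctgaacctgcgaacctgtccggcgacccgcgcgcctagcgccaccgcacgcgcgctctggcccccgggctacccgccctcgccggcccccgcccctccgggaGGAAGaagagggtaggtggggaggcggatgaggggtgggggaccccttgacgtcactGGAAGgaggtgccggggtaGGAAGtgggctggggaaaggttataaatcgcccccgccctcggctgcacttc
Tek: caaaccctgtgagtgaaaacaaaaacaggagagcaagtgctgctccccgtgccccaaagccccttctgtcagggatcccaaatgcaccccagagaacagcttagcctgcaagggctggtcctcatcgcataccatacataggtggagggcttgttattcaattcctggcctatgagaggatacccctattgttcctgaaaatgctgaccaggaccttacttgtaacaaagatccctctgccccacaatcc
GGAAG occurred 1 time in the Kdr window, 3 times in Flt1, 1 time in Flt4, 0 times in Tek and 6 times in Tie1. At least 1 match was found in 64.1% of all 32851 promoter windows in the RefSeq table, at least 3 in 10.7%, and 6 or more in 0.344%. The core that Krüppel-like factors bind, CACCC on either strand, was present in all 5 windows and in 52.0% of all windows. Neither ACGTG, a form of the hypoxia response core, nor TGTTTAC, a form of the forkhead core, occurred in any of the 5. They were found in 16.6% and 3.17% of all windows. Other forms of these cores, such as GCGTG, which the Kdr window holds, were not counted. A match describes letters only. Of the ligands, Vegfa, Vegfb and Vegfc were in the same table, each with at least 1 CACCC core, and the GGAAG core occurred 1 time in Vegfa and 0 times in Vegfb and Vegfc. Their windows held neither ACGTG nor TGTTTAC. Angpt1 and Angpt2 were not in it.

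In the GENCODE vM21 annotation (GRCm38), the gene bodies of the receptors are Kdr (ENSMUSG00000062960) at chr5:75932827-75978458, Flt1 (ENSMUSG00000029648) at chr5:147561604-147726011, Flt4 (ENSMUSG00000020357) at chr11:49609263-49652739, Tek (ENSMUSG00000006386) at chr4:94739289-94874976 and Tie1 (ENSMUSG00000033191) at chr4:118471191-118490061. The ligand genes are Vegfa (ENSMUSG00000023951) at chr17:46016993-46032369, Vegfb (ENSMUSG00000024962) at chr19:6982473-6987651, Vegfc (ENSMUSG00000031520) at chr8:54077606-54187096, Angpt1 (ENSMUSG00000022309) at chr15:42424723-42676977 and Angpt2 (ENSMUSG00000031465) at chr8:18690263-18741562. Because 3′ tags are counted, levels were compared between cells for 1 gene and not between genes.

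Levels were ordered over the 11 classes that had at least 20 cells in at least 5 samples. They are given as a description, since cells of all classes came from the same 6 samples and were clustered on their own expression. All 5 receptors were highest in endothelial cells, where the lowest sample lay above the highest sample of every other class among the 11. No ligand had a class standing apart in this way except Angpt2, which stood apart in pericytes.

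**Figure D1:**
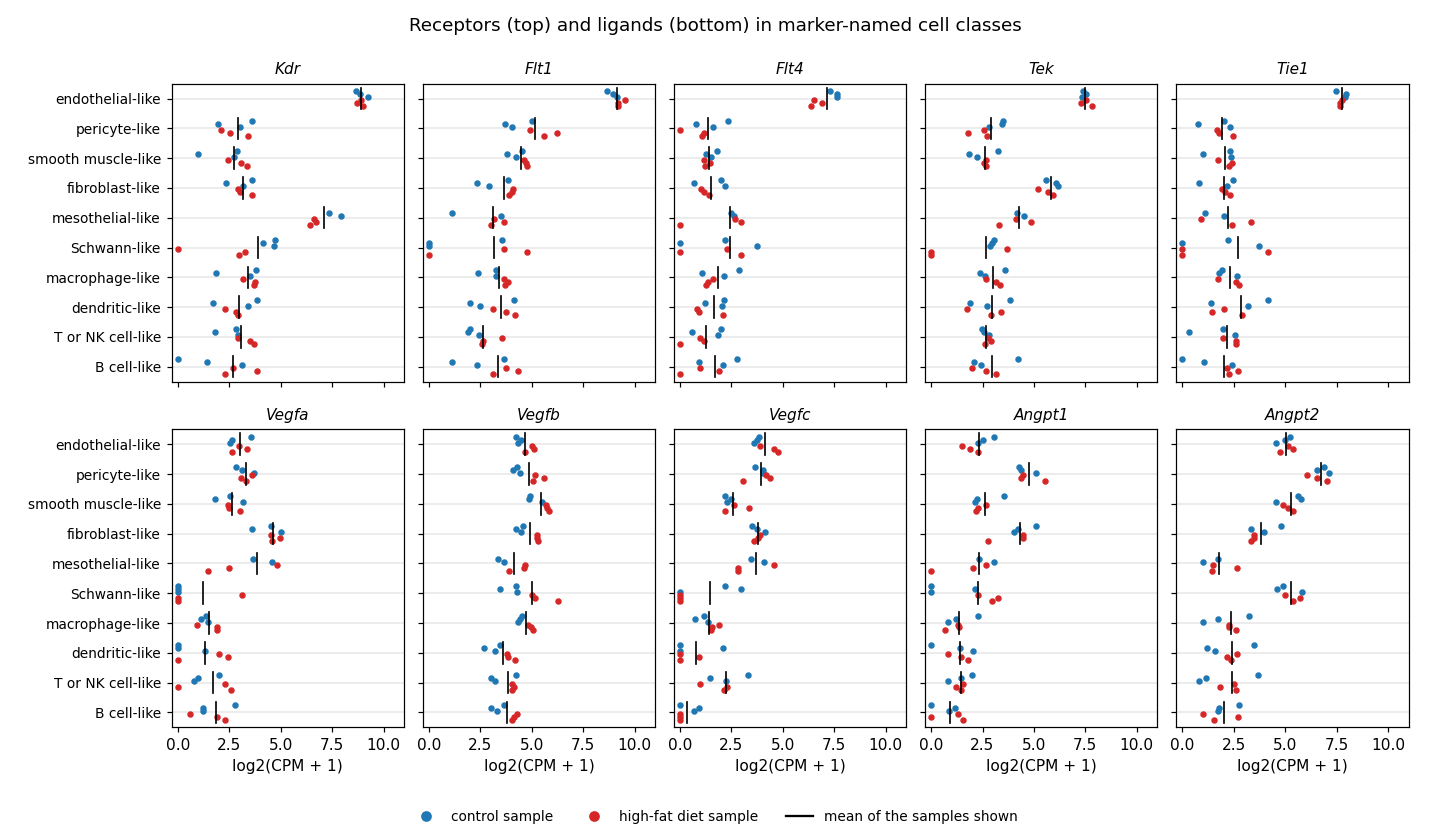
Level of each of the 10 genes in the classes of the order except erythroid cells, as log2(CPM + 1), with 1 point per sample with at least 20 cells of that class (control blue, high-fat diet red) and a line at the mean CPM. All 5 receptors are separated from the other classes in endothelial cells, while Vegfb is spread over most classes.

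Kdr, the main signalling receptor for VEGF-A, was at 409.8, 462 and 613 CPM in the endothelial cells of the control samples and at 474, 412 and 504 CPM in those of the high-fat diet samples. The mean over all 6 was 479 ± 74.9 CPM (SD, n = 6). Mesothelial cells, the lining of the surfaces around the vessel, came next at 138 ± 67.1 CPM (SD, n = 5), with a range of 84.5 to 247 that touched neither the endothelial class above nor the Schwann cells below. The 8 endothelial markers summed to between 241 and 342 CPM in mesothelial cells, far under their endothelial level. B cells, which should lack the receptor, held 5.39 ± 4.87 CPM (SD, n = 6). Their level of a receptor is read here as a background, and its source, such as free RNA, was not tested. The smallest B cell sum, that of control 1, held 172141 UMIs of all genes, so its values rest on few UMIs of any 1 gene.

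Flt1, the high-affinity receptor for VEGF-A and VEGF-B, was at 558 ± 114 CPM (SD, n = 6) in endothelial cells, at 34.5 ± 22.6 in pericytes and at 21.3 ± 5.07 in smooth muscle. Pericytes ranged from 12.04 to 73.0 CPM and overlapped smooth muscle, so these neighbours were not separated. B cells held 9.36 ± 6.40 CPM.

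Flt4, the receptor for VEGF-C, was at 139.6 ± 50.3 CPM (SD, n = 6) in endothelial cells. Schwann cells came next at 4.46 CPM, and B cells held 2.28 ± 2.12 CPM. Tie1, the partner of Tie2, was at 216 ± 24.8 CPM (SD, n = 6) in endothelial cells, with dendritic cells next at 6.32 CPM and B cells at 3.04 ± 2.08 CPM.

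Tek, which encodes the angiopoietin receptor Tie2, departed from the other receptors by a second level in fibroblasts. In endothelial cells it was at 166, 181 and 162 CPM in the control samples and at 184, 153 and 222 CPM in the high-fat diet samples. In fibroblasts it was at 46.5, 65.1 and 71.8 CPM in the control samples and 36.1, 50.8 and 58.7 CPM in the high-fat diet samples, with a mean of 54.8 ± 12.995 (SD, n = 6). Every fibroblast sample lay above every sample of mesothelial cells, the next class at 18.3 ± 7.03 CPM (n = 5), and above every sample of B cells, which ranged from 2.96 to 17.4. Since fibroblasts were numerous, they held 51.7 ± 11.98% of the 9423 Tek UMIs (mean of 6 samples ± SD), against 34.4 ± 11.1% in endothelial cells. For the other receptors endothelial cells held the larger share, at 73.4% of 11271 UMIs for Kdr, 70.6% of 13691 for Flt1, 81.0% of 2889 for Flt4 and 78.6% of 4719 for Tie1.

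Among fibroblast clusters, Tek was highest in cluster 2, whose leading genes were Tmem100, Dact2, Pla1a and Pi16. This cluster had 4420 cells and Tek at 111.5, 124 and 178 CPM in the control samples and 112, 128 and 122 CPM in the high-fat diet samples. Control 3 was highest and the other 5 samples lay close together. In the same cells Tie1 was at 2.98 CPM and Kdr at 6.91 CPM, near their B cell levels of 3.04 and 5.39. A neighbouring cluster led by Dkk2 and Thbs4 had Tek at 85.7 CPM in 3 samples, between 73.2 and 92.8. A further cluster led by Cilp, Ccl11 and Sfrp4 had 34.1 CPM, between 23.3 and 53.3. The cluster led by Tbx20 and Meox1 was at 5.8 CPM.

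**Figure D2:**
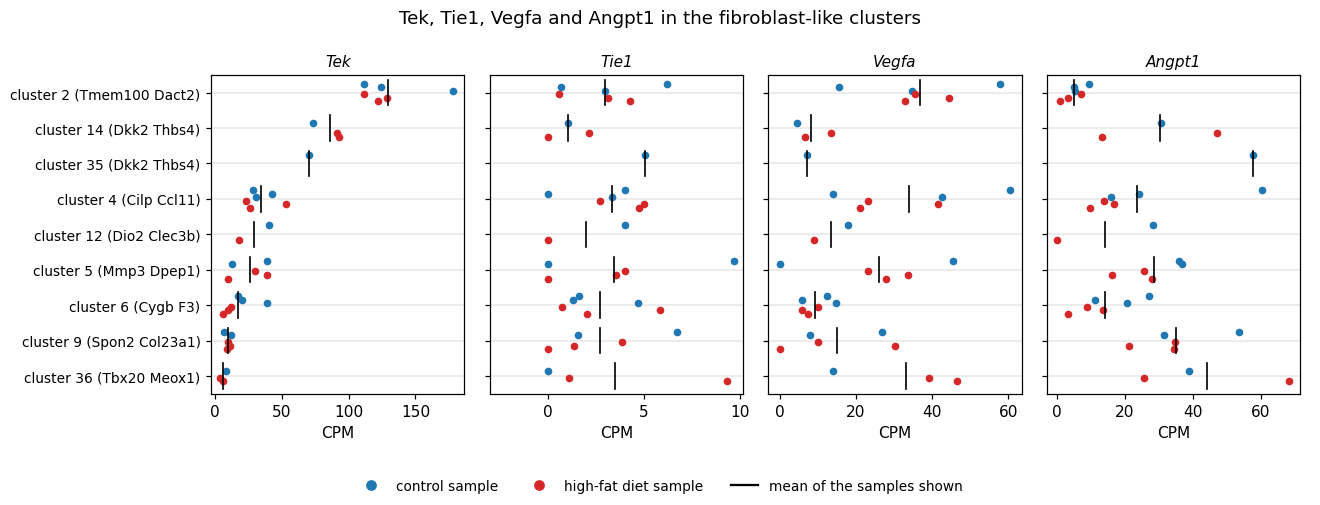
Level of Tek, Tie1, Vegfa and Angpt1 by fibroblast cluster in CPM, with 1 point per sample with at least 20 cells (control blue, high-fat diet red) and a line at the mean. Tek peaks in the cluster led by Tmem100 and Dact2 at 129 CPM, where Angpt1 is at 5.10 CPM.

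Angpt1, the ligand of Tie2, was not ordered over the fibroblast clusters as Tek was. It was at 5.10 CPM in cluster 2, where Tek was highest, at 35.1 CPM in a cluster led by Spon2 and Col23a1, and at 44.3 CPM in the cluster led by Tbx20 and Meox1, where Tek was low. The clusters led by Dkk2 and Thbs4 carried both genes, with Tek at 85.7 and Angpt1 at 30.3 CPM in one over 3 samples, and with Tek at 69.9 and Angpt1 at 57.8 CPM in the other, which rests on control 1. Over classes Angpt1 was at 26.3 ± 10.7 CPM in pericytes and 19.0 ± 8.80 CPM in fibroblasts (SD, n = 6 each), with overlapping ranges. Smooth muscle followed at 5.06 ± 2.81 CPM. Fibroblasts held 60.1% of all 2807 Angpt1 UMIs.

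Angpt2, the antagonist in many settings, was highest in pericytes at 106 ± 28.2 CPM (SD, n = 6), with 116, 91.4 and 139.6 CPM in the control samples and 65.4, 91.2 and 132 CPM in the high-fat diet samples. Schwann cells at 38.7 ± 13.1, smooth muscle at 38.1 ± 11.8 and endothelial cells at 31.9 ± 6.89 CPM followed and overlapped each other. One smooth muscle cluster, led by Itga8 and Mir143hg, reached 77.5 CPM over 4 samples with a range of 32.1 to 139. Smooth muscle held 50.8% of the 6138 Angpt2 UMIs, fibroblasts 18.6% and pericytes 14.6%.

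Vegfa, the founding ligand, was low throughout. Fibroblasts had 21.8, 11.3 and 31.7 CPM in the control samples and 21.8, 30.7 and 23.0 CPM in the high-fat diet samples. Mesothelial cells at 13.6 ± 11.1 CPM (n = 5), pericytes at 8.91 ± 2.31 and endothelial cells at 7.001 ± 2.49 (n = 6) formed a series in which each class overlapped the next. Within fibroblasts the clusters with the most Vegfa were cluster 2 at 36.8 CPM and the cluster led by Cilp at 33.9 CPM.

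Vegfb, a ligand of VEGFR1, was spread over many classes. Smooth muscle was at 43.4 ± 12.02 CPM (SD, n = 6), Schwann cells at 31.3, fibroblasts at 29.2, pericytes at 28.2, macrophages at 25.2 and endothelial cells at 24.6 CPM, each overlapping the next. Smooth muscle held 40.5% and fibroblasts 29.8% of the 8874 Vegfb UMIs.

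Vegfc, the ligand of VEGFR3, was at 16.6 ± 6.34 CPM in endothelial cells, 14.3 ± 4.35 in pericytes, 12.8 ± 2.27 in fibroblasts (SD, n = 6 each) and 12.1 ± 7.03 in mesothelial cells (n = 5). These 4 classes were not separated. B cells held 0.251 CPM.

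The endothelial class was then divided into 8 subclusters. EC0 (1688 cells, led by Car4, Timp4 and Tcf15) was capillary-like, EC1 (399 cells; Gkn3, Klk10, Gja5) and EC5 (185 cells; Sema3g, Alpl, Notch3) arterial-like, and EC2 (357 cells; Ccl21a, Reln, Mmrn1) and EC4 (218 cells; Ackr4, Clca3a1, Foxp2) lymphatic-like. EC3 (297 cells; Npr3, Vwf, Plvap), EC6 (137 cells; Tagln, Col1a1, Lmod1) and EC7 (135 cells; Fam167b, Esm1, Plvap) kept no name. EC6 was led by genes of smooth muscle and fibroblasts. The plot of levels by endothelial subcluster shows 7 of the genes over these groups, again as a description, since the same cells were clustered.

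**Figure D3:**
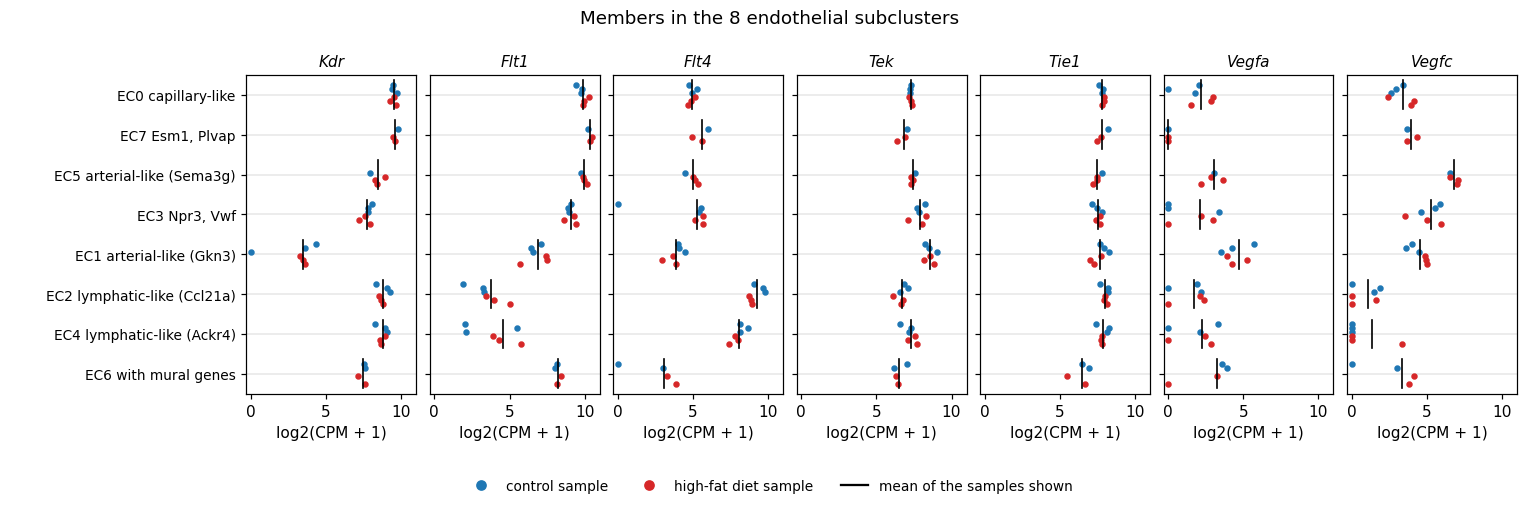
Level of the 5 receptors, Vegfa and Vegfc by endothelial subcluster, as log2(CPM + 1), with 1 point per sample with at least 20 cells (control blue, high-fat diet red) and a line at the mean CPM. EC1 carries the lowest Kdr and the highest Tek of the 8, and EC2 and EC4 carry Flt4 with little Flt1.

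EC1 stood apart in its receptor set. Kdr was at 18.7, 11.04 and 0 CPM in the control samples and 8.67, 10.2 and 10.9 CPM in the high-fat diet samples, 24 UMIs in all, against 721 ± 85.8 CPM (SD, n = 6) in capillary-like EC0. The EC1 level overlapped the B cell range of 0 to 13.6 CPM. Flt1 in EC1 was at 119 ± 49.2 CPM against 936 ± 179 in EC0, with no overlap between the subclusters. Tek ran the other way, at 296, 353 and 516 CPM in the control samples and 376, 289 and 458 CPM in the high-fat diet samples of EC1, against a range of 143 to 167 CPM in EC0. Tie1 did not separate them, at 207 ± 64.4 and 228 ± 18.5 CPM. The summed endothelial markers were between 6565 and 7829 CPM in EC1 and between 5101 and 6087 CPM in EC0, so low Kdr in EC1 did not go with a low level of the endothelial markers.

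The second arterial-like group, EC5, did not share this receptor set. Over the 4 samples with at least 20 cells it had Kdr at 342 ± 104, Flt1 at 997 ± 115 and Tek at 171 ± 16.7 CPM. It also held the highest Vegfc, at 93.0 CPM in control 3 and 93.5, 134 and 128 CPM in the high-fat diet samples. Vegfc was among the 10 genes that led this subcluster, a list drawn from the same levels after clustering. The members were kept out of the genes used for clustering and out of the marker lists. Vegfc was at 38.2 ± 19.9 CPM in EC3, 23.0 ± 8.66 in EC1 and 9.55 ± 5.26 in EC0 (SD, n = 6 each). In the lymphatic-like cells, which carry its receptor, it was at 1.40 CPM, 6 UMIs in all.

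The lymphatic-like subclusters carried Flt4 with little Flt1. Flt4 was at 601 ± 201 CPM in EC2 and 269 ± 82.0 CPM in EC4 (SD, n = 6 each), and the lowest EC2 sample, at 416 CPM, stood just above the highest EC4 sample, at 413 CPM. In EC0 it was at 30.1 ± 5.33 CPM and in EC1 at 13.9 ± 4.71 CPM. Flt1 was at 12.6 ± 9.85 CPM in EC2 and 22.5 ± 21.0 CPM in EC4, beside 9.36 CPM in B cells. In EC4 control 2 at 43.7 CPM and high-fat diet 3 at 52.7 CPM lay above the highest B cell sample, at 19.1 CPM, and the other 4 samples did not. Kdr was nevertheless present in both, at 445 ± 110.3 and 431 ± 79.5 CPM.

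EC7, led by Fam167b and Esm1, had Kdr at 776 ± 85.6 CPM and Flt1 at 1326 ± 118 CPM over the 3 samples with at least 20 cells. For both genes its range overlapped that of EC0. EC3 had less Kdr, at 215 ± 42.2 CPM, with Tek at 239 ± 65.6 CPM (SD, n = 6 each). Tie1 ran from 180.0 CPM in EC5 to 262 CPM in EC2, with EC6 lower at 87.6 CPM.

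Of the ligands within the endothelium, Vegfa was at 52.4, 17.7 and 10.5 CPM in the control samples and 14.4, 37.4 and 17.8 CPM in the high-fat diet samples of EC1, against 3.47 ± 2.70 CPM in EC0. The highest EC0 sample was at 7.08 CPM. The EC1 values rest on 52 UMIs in all, and that of control 3, the lowest, on 1 UMI. Angpt2 was at 48.1 ± 17.3 CPM in lymphatic-like cells and 36.0 ± 13.3 CPM in EC0, with overlap, and at 5.99 ± 3.79 CPM in EC1.

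As a description of likeness, Pearson's r of log2(CPM + 1) was taken over 89 sums of a class and sample in 18 classes, which share libraries and depth. The genes most like Kdr were Tmem88 (r = 0.79) and Podxl (0.79), those most like Flt1 were Gpihbp1 (0.87) and Tcf15 (0.87), and those most like Flt4 were Ccl21a (0.82) and Mmrn1 (0.79). For Tek they were Ramp2 (0.81) and Ly6c1 (0.79), and for Tie1 Cdh5 (0.86) and Rasip1 (0.85). Among ligands, Angpt2 was most like Hey2 (0.82) and Igfbp7 (0.79), Angpt1 like Adra1b (0.77) and Ccl19 (0.74), Vegfa like Gli3 (0.67) and Mgst1 (0.67), Vegfb like Acadm (0.78) and Ndufa5 (0.76), and Vegfc like Tshz2 (0.74) and Rhoj (0.73). The third gene for each was Ablim3 (0.76) for Kdr, Cdh5 (0.81) for Flt1, Gm21541 (0.78) for Flt4, Ecscr (0.78) for Tek, Cyyr1 (0.85) for Tie1, Postn (0.79) for Angpt2, Thbs2 (0.71) for Angpt1, Gstm2 (0.67) for Vegfa, Ndufc1 (0.75) for Vegfb and Ankrd29 (0.73) for Vegfc.

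Diet was tested on UMIs summed per class and sample, 3 samples against 3, with edgeR's quasi-likelihood test across all genes and Benjamini-Hochberg adjustment. In endothelial cells none of the 10 genes passed an adjusted p of 0.05, where 0.256% of the 11309 genes tested did. At an unadjusted p under 0.05 there were 3 members, Flt4, Vegfb and Vegfc, against 1606 of the 11309 genes tested. DESeq2 called 121 genes, 1 of them a member, Flt4. For 5 of the 10 (Flt4, Flt1, Vegfb, Vegfc and Angpt1) the 3 high-fat diet samples lay wholly on one side of the 3 controls, against 20.5% of all genes tested. The members' median log2 difference was 0.08, against -0.0019 over all genes, with 6 of 10 above 0.

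**Figure D4:**
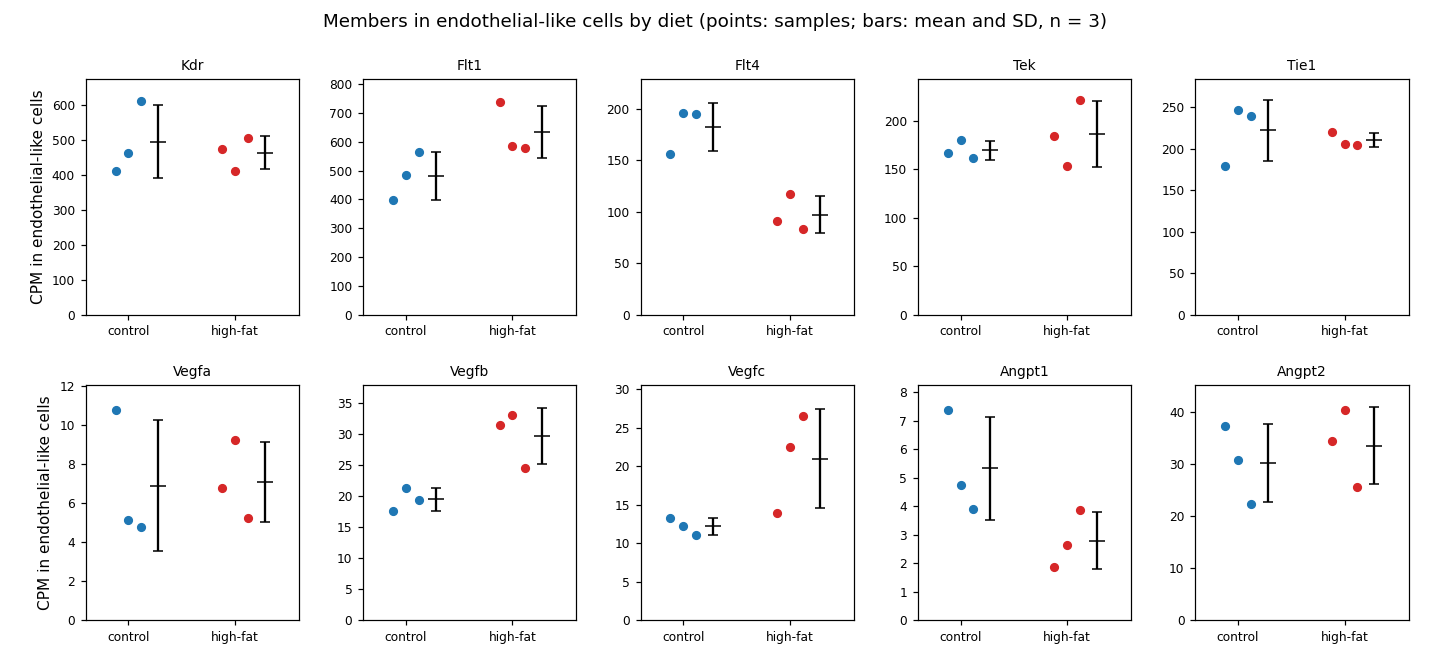
Level of each of the 10 genes in endothelial cells by diet in CPM, with 1 point per sample and bars at the group mean ± SD (n = 3 per group). The groups are apart for Flt4, lower on the high-fat diet, and for Flt1, Vegfb and Vegfc, all but touch for Angpt1 (3.89 and 3.87 CPM), and overlap for the other genes.

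Flt4 in endothelial cells was at 156, 196 and 195 CPM in the control samples and at 90.9, 117 and 82.9 CPM in the high-fat diet samples. All 3 high-fat diet samples lay below all 3 controls. The log2 difference, high-fat diet over control, was -0.96 (SE 0.17), with an adjusted p of 0.0590 by edgeR's quasi-likelihood test. It was called by DESeq2 (adjusted p 0.000884), with no filter on low counts (0.000938) and without control 1 (0.00849). Each sample joined 2 gel-bead wells, and the difference was -1.18 in well 1 alone (edgeR adjusted p 0.202) and -0.34 in well 2 alone (0.795). In control 3, well 1 held 626 of the filtered cells and well 2 held 7714. Values from well 1 alone, here and below, thus rest on few cells of control 3. Over all 16 alternatives the Flt4 difference ran from -1.18 to -0.34.

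The share of lymphatic-like cells in the endothelial class was also lower on average on the high-fat diet. It was 24.8%, 20.3% and 16.2% in the control samples and 15.4%, 17.6% and 12.9% of cells in the high-fat diet samples, and 7 lymphatic markers summed to 2377, 1695 and 1988 CPM against 1541, 1752 and 1175 CPM, with overlap in both measures. Fewer lymphatic-like cells and less Flt4 per cell cannot be told apart in the class as a whole. Within the lymphatic-like cells alone Flt4 was at 408, 618 and 678 CPM in the control samples and 334, 392 and 336 CPM in the high-fat diet samples, again without overlap. The log2 difference there was -0.75 (SE 0.19), with an edgeR adjusted p of 0.122, of 0.00117 with no filter on low counts and of 0.000578 without control 1. In the capillary-like cells it was -0.15 (SE 0.24, adjusted p 0.844) and the groups overlapped.

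In the lymphatic-like cells none of the 7 members tested passed edgeR's adjusted threshold, where 0.494% of 7485 genes did. Flt4 was the 1 member of 7 at an unadjusted p under 0.05, against 792 of 7485 genes. DESeq2 called 36 genes, 0 of them members. Flt4 and Vegfb did not overlap between diets, 2 of 7 members against 16.1% of all genes. Vegfa, Vegfc and Angpt1 were too low there to be tested. By subcluster, Flt4 means were 744 ± 196 in the control against 458 ± 36.9 CPM in the high-fat diet samples in EC2 (edgeR adjusted p 0.133) and 324 ± 77.1 against 214 ± 41.8 CPM in EC4 (0.368; SD, n = 3 each). Neither passed.

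Flt1 in endothelial cells was at 398, 486 and 563 CPM in the control samples and 739.6, 585 and 578 CPM in the high-fat diet samples. The groups did not overlap, though control 3 and high-fat diet 3 lay close together. The log2 difference was 0.35 (SE 0.18, edgeR adjusted p 0.400), and 0.37 in well 1 and 0.08 in well 2 alone. Capillary-like cells, in which Flt1 is high, made up 38.5%, 31.0% and 52.3% of the endothelial class in the control samples and 50.1%, 54.8% and 57.0% of it in the high-fat diet samples, and their part in this difference was not tested in the class as a whole. Taken alone, capillary-like cells gave 693, 902 and 846 CPM against 1230.4, 1006 and 938 CPM, a log2 difference of 0.33 (SE 0.17, edgeR adjusted p 0.419).

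The other receptors overlapped between diets in endothelial cells. The log2 difference was -0.14 (SE 0.18, edgeR adjusted p 0.782) for Kdr, 0.10 (SE 0.15, 0.810) for Tek and -0.12 (SE 0.16, 0.773) for Tie1. Each of these 3 changed sign under at least 1 alternative. Angpt2 differed by 0.13 (SE 0.21, edgeR adjusted p 0.819) and Vegfa by 0.05 (SE 0.36, 0.968). Angpt1 was at 5.33 ± 1.81 CPM in the control samples and 2.80 ± 1.00 CPM in the high-fat diet samples (SD, n = 3 each), a log2 difference of -0.88 (SE 0.41, edgeR adjusted p 0.364) on 67 UMIs. Its groups all but touched, with the lowest control at 3.89 CPM and the highest high-fat diet sample at 3.87 CPM.

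Vegfc in endothelial cells was at 13.3, 12.3 and 11.1 CPM in the control samples and 13.9, 22.5 and 26.5 CPM in the high-fat diet samples. High-fat diet 1 exceeded the highest control by little. The log2 difference was 0.77 (SE 0.25, edgeR adjusted p 0.223). EC5, where Vegfc was highest, held 13 of 327, 16 of 449 and 31 of 629 endothelial cells in the control samples and 33 of 583, 30 of 562 and 62 of 866 cells in the high-fat diet samples, and its part in the difference was not tested.

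Among capillary-like cells none of 8 members tested was called, where 0.315% of 8901 genes were. At an unadjusted p under 0.05 there were 0 members, against 1206 of 8901 genes. DESeq2 called 50 genes, 0 of them members. Vegfb and Flt1 did not overlap, 2 of 8 members against 19.1% of all genes. In arterial-like cells edgeR called none of 8 members, where 0.0784% of 6379 genes were called. Vegfb was the 1 member at an unadjusted p under 0.05, against 457 of 6379 genes. DESeq2 called 11 genes, 0 of them members. Vegfb was the 1 member without overlap there, against 13.8% of genes. Tie1 in arterial-like cells had a log2 difference of -0.45 (SE 0.21, edgeR adjusted p 0.708), and Kdr 0.48 (SE 0.32, 0.775). Arterial-like cells join EC1, with little Kdr, and EC5, with more, and their mix differed between samples. EC1 and EC5 held 46 and 13, 89 and 16, and 21 and 31 cells in the control samples, against 66 and 33, 45 and 30, and 132 and 62 cells in the high-fat diet samples. Within EC1 Kdr was at 9.92 ± 9.41 CPM in the control and 9.93 ± 1.16 CPM in the high-fat diet samples (SD, n = 3 each), too low to be tested. The part of this mix in the arterial-like differences was not tested. The difference in diet effect between arterial-like and capillary-like cells was tested as an interaction. It was -0.53 for Tie1 (unadjusted p 0.0145, edgeR adjusted p 0.803) and 0.56 for Kdr (unadjusted p 0.0528, adjusted p 0.868), and 0 of 9 members passed, where 0.0112% of 8930 genes did, so no difference between these subtypes in the response of a member was detected at this number of samples. At an unadjusted p under 0.05 there was 1 member of 9, Tie1, and the share of all genes at that level was not computed.

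The share of endothelial cells with a UMI was compared after each cell was thinned to 1000 UMIs. For Flt4 it was 10.2 ± 0.28% in the control samples and 6.26 ± 1.42% in the high-fat diet samples (SD, n = 3 each), with an exact permutation p of 0.1, the smallest that 3 against 3 allows, and 0.333 after Benjamini-Hochberg adjustment over 10 genes. For Flt1 it was 34.0 ± 5.29% against 42.9 ± 2.18% (exact permutation p 0.1, adjusted 0.333). Unthinned, these shares were 26.6% against 19.96% for Flt4 and 60.5% against 68.7% for Flt1. B cells thinned alike gave 0.21% and 0% for Flt4 (exact permutation p 0.4) and 0.23% and 1.29% for Flt1. For Flt1 the exact permutation p in B cells was also 0.1 (adjusted 0.5), so this background class had the same direction without overlap. Median UMIs per sample were 3083 to 4448 in endothelial cells and 2211 to 4993 in B cells. Kdr was found in 34.9% and 35.6% of thinned endothelial cells (exact permutation p 1), Tek in 14.8% and 17.6% (0.3) and Tie1 in 19.4% and 19.97% (0.9). Vegfb also reached the smallest p, at 1.28% in the control and 2.33% in the high-fat diet samples (exact permutation p 0.1, adjusted 0.333). In thinned B cells it was at 0.50% and 1.66% (exact permutation p 0.1, adjusted 0.5).

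Vegfb had the same direction in many cell classes. In fibroblasts it was at 22.9, 18.0 and 20.9 CPM in the control samples and 37.2, 36.9 and 39.0 CPM in the high-fat diet samples. The groups were far apart relative to the spread within each, with a log2 difference of 0.82 (SE 0.10) and an edgeR adjusted p of 0.0742. DESeq2 gave an adjusted p of 1.7e-05 and edgeR with no filter on low counts 0.0401. It was 1.04 in well 1 alone and 0.48 in well 2 alone (edgeR adjusted p 0.517 and 0.479), which were also the ends of its range over 16 alternatives. Without the clusters that came mostly from 1 sample it was 0.79 (edgeR adjusted p 0.136).

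In endothelial cells Vegfb was at 17.7, 21.4 and 19.5 CPM in the control samples and 31.6, 33.1 and 24.6 CPM in the high-fat diet samples, a log2 difference of 0.56 (SE 0.18, edgeR adjusted p 0.224). In well 1 and well 2 alone it was 0.65 and 0.40. Among lymphatic-like cells the difference was 0.82 in EC2, without overlap (edgeR adjusted p 0.347), and 0.04 in EC4, with overlap (0.982). In smooth muscle Vegfb was at 29.6, 27.8 and 44.1 against 50.2, 52.5 and 56.1 CPM, a log2 difference of 0.61 (SE 0.22, edgeR adjusted p 0.496). Neither class overlapped between diets. Macrophages had 21.7, 20.8 and 18.8 against 27.3, 30.1 and 32.6 CPM, a log2 difference of 0.47 (SE 0.15, edgeR adjusted p 0.490). Pericytes had 18.5, 16.3 and 20.4 against 34.6, 47.4 and 32.1 CPM, 1.01 on the log2 scale (SE 0.25, edgeR adjusted p 0.301). Those classes did not overlap either. Within macrophages, the largest cluster, led by Cd209f and F13a1, did overlap (27.0, 27.5 and 26.1 against 27.1, 23.1 and 39.2 CPM). So did the cluster led by Lyz1 and Ear2, while that led by Cx3cr1 and Lyz2 did not. The latter was at 0, 10.1 and 10.5 against 19.0, 25.1 and 19.2 CPM. The smooth muscle cluster led by Sorbs2 and Nrip2 overlapped, and that led by Itga8, Sost and Npnt did not. The part of the cluster mix in the class values was not tested. B cells had 11.6, 7.07 and 8.94 against 18.8, 16.4 and 15.6 CPM, and dendritic cells 7.84 ± 2.38 against 14.5 ± 2.32 CPM (SD, n = 3 each). The B cell value of control 1, 11.6 CPM, rests on few UMIs. In T or NK cells, at 11.1 ± 6.02 against 15.8 ± 0.765 CPM, the groups overlapped.

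Vegfb was therefore higher in all 3 high-fat diet samples than in all 3 controls in 7 of 8 classes, and its log2 difference was above 0 in 8 of 8. Of the 6264 genes tested in all 8 classes, 0.894% had this order in at least 7, a number of classes that was set by Vegfb itself. The classes share the same 6 samples and any free RNA in them, so they are not independent, and the Vegfb level in B cells moved with the rest. What part free RNA or any other difference between the libraries has in this was not tested.

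**Figure D5:**
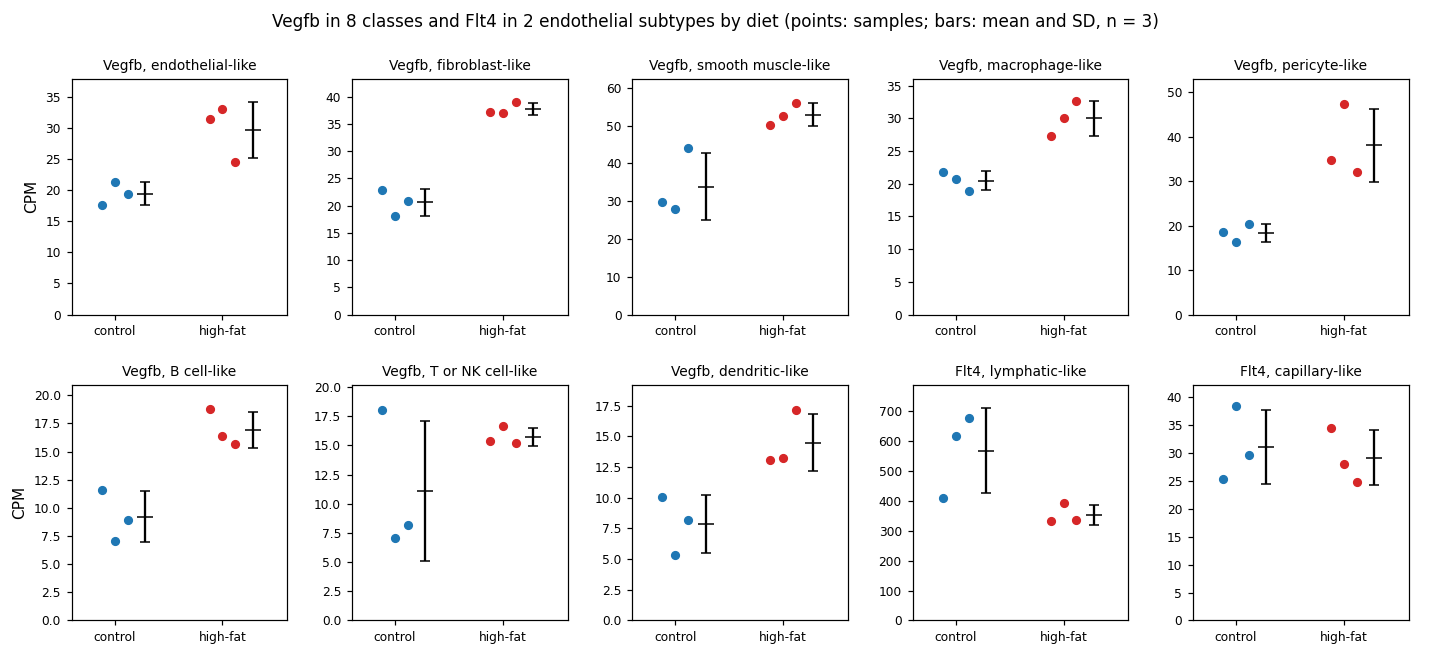
Vegfb in 8 cell classes and Flt4 in lymphatic-like and capillary-like cells by diet in CPM, with 1 point per sample and bars at the group mean ± SD (n = 3 per group). Vegfb is higher in the high-fat diet samples without overlap in 7 of the 8 classes, and Flt4 is lower without overlap in lymphatic-like cells.

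Flt1 was low outside the endothelium. Its log2 difference was above 0 in all 7 of the 8 classes where it could be tested. The groups did not overlap in 4, which were endothelial cells, fibroblasts, smooth muscle and macrophages. Of all genes tested there, 20.5%, 16.6%, 14.7% and 14.5% did not overlap. The share of genes without overlap in as many classes was not computed, and the classes share the same 6 samples. Fibroblasts had 7.93 ± 4.81 against 15.2 ± 1.097 CPM (log2 difference 0.92, edgeR adjusted p 0.453), smooth muscle 17.6 ± 4.66 against 25.01 ± 1.30 CPM (0.49, adjusted p 0.504) and B cells 5.64 ± 5.37 against 13.1 ± 5.67 CPM (1.88, adjusted p 0.178), with SD and n = 3 each. The B cell level, which is read as background, was thus also higher on average on the high-fat diet, with overlap: 11.6, 1.20 and 4.11 CPM in the control samples and 12.3, 19.1 and 7.82 CPM in the high-fat diet samples.

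By class, edgeR called none of 10 members in fibroblasts, where 0% of 13802 genes were called. At an unadjusted p under 0.05 there were 3 (Vegfb, Flt1, Angpt2), against 1453 of 13802 genes. DESeq2 called 199 genes, 1 of them a member (Vegfb). Between diets 2 members (Vegfb, Flt1) did not overlap, against 16.6% of genes. In smooth muscle edgeR called none of 10, where 0% of 13301 genes were called. At an unadjusted p under 0.05 there were 2 (Vegfb, Flt1), against 1217 of 13301 genes. The same 2 did not overlap, against 14.7% of genes, and DESeq2 called 91 genes, 0 of them members. In macrophages edgeR called none of 6, where 0% of 11110 genes were called. At an unadjusted p under 0.05 there were 2 (Vegfb, Flt1), against 953 of 11110 genes. Both did not overlap, against 14.5% of genes, and DESeq2 called 36 genes, 0 of them members. In pericytes edgeR called none of 6, where 0.0776% of 9025 genes were called. At an unadjusted p under 0.05 there were 2 (Vegfb, Flt1), against 716 of 9025 genes. Vegfb alone did not overlap, against 13.4% of genes, and DESeq2 called 29 genes, 0 of them members. With no filter on low counts edgeR called Vegfb and Flt1 in pericytes (Vegfb adjusted p 0.0389, Flt1 0.000409).

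Tek in fibroblasts differed by -0.41 on the log2 scale between diets (SE 0.26, edgeR adjusted p 0.598) and the groups overlapped. Angpt1 in fibroblasts differed by -0.49 (SE 0.50, edgeR adjusted p 0.742) and Angpt2 by -0.78 (SE 0.31, 0.461). In pericytes, where Angpt2 was highest, its difference was -0.28 (SE 0.25, edgeR adjusted p 0.806), and in smooth muscle -0.26 (SE 0.29, 0.800). Vegfa in fibroblasts differed by 0.21 (SE 0.33, edgeR adjusted p 0.839). All of these overlapped between diets.

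The rest of the pathway was read from 5 lists in endothelial cells, with the same test. Over all 11309 genes tested there, 20 rose and 9 fell, and the median log2 difference was -0.0019. Of the other ligands, co-receptors and the phosphatase that dampens Tie2, 10 of 13 were tested and none passed edgeR's adjusted threshold, with a median log2 difference of 0.05. Nrp2, the co-receptor that pairs with VEGFR3, had the smallest p, at 192 CPM in the control and 138 CPM in the high-fat diet samples (log2 difference -0.53, SE 0.15, edgeR adjusted p 0.181). Nrp1, the co-receptor of VEGFR2, was at 537 and 686 CPM (0.32, SE 0.14, adjusted p 0.347). Sema3g, a neuropilin ligand, differed by 0.52 and Ptprb, the phosphatase, by 0.31 (edgeR adjusted p 0.455 and 0.519). In lymphatic-like cells Nrp2 differed by -0.75 (SE 0.21, edgeR adjusted p 0.194), without overlap.

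Of 18 signal transducers of the VEGF receptors, 17 were tested, 1 rose and none fell, with a median of -0.03. Of all 11309 genes tested, 0.256% passed in either direction. The 1 was Hspb1, a small heat shock protein that acts on actin downstream of VEGFR2 and also responds to stress. It rose from 602 to 1410.5 CPM (log2 difference 1.20, SE 0.13, edgeR adjusted p 0.0137), also in capillary-like (0.94, adjusted p 0.0347), arterial-like (1.54, adjusted p 0.0225) and lymphatic-like cells (1.29, adjusted p 0.00899). The endothelial call was lost without control 2 (0.0629), without high-fat diet 1 (0.110) or high-fat diet 2 (0.158) and in well 1 alone (0.189), while well 2 alone gave 1.49 (0.0160). The capillary-like call was lost when any 1 sample other than control 1 was left out, the arterial-like call without high-fat diet 1, high-fat diet 2 or control 2, and the lymphatic-like call without control 2 or high-fat diet 1.

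Of 18 genes induced by VEGF in endothelial cells, 15 were tested and none passed (median 0.07). Plaur, the urokinase receptor, had a log2 difference of -0.58 (edgeR adjusted p 0.212) and Adamts1, a matrix protease, 0.66 (0.215). Nid2, a basement membrane protein, differed by -0.71 and Aplnr, the apelin receptor, by -0.54 (edgeR adjusted p 0.2798 and 0.369). In lymphatic-like cells Adamts1 rose from 67.3 to 139 CPM (0.99, SE 0.22, edgeR adjusted p 0.0460), a call that DESeq2 did not make (0.180) and that was lost without control 2 or any 1 of the high-fat diet samples.

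Of 12 genes of Tie2 signalling and its FOXO1 targets, all 12 were tested and none passed in the endothelial class (median 0.09). Klf2, the flow-responsive factor named in the study's title, was at 552 CPM in the control and 1078 CPM in the high-fat diet samples (0.93, SE 0.23, edgeR adjusted p 0.146), and Klf4 at 200.4 and 315 CPM (0.62, adjusted p 0.242). Btg1 differed by -0.19 and Esm1 by -0.29 (edgeR adjusted p 0.511 and 0.615). In lymphatic-like cells Klf2 rose from 384 to 714 CPM (0.84, SE 0.17, edgeR adjusted p 0.0230), and that call was lost without control 2 or without any 1 of the high-fat diet samples.

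Of 20 hypoxia-response genes, 19 were tested, 2 rose and none fell (median 0.12), where 0.256% of all 11309 genes passed in either direction. On the list 7 of 19 did not overlap between diets, against 20.5% of all genes. Both were collagen prolyl hydroxylase subunits. P4ha1 rose from 26.6 to 86.0 CPM (1.67, SE 0.14, edgeR adjusted p 0.00279) and P4ha2 from 16.5 to 43.9 CPM (1.41, SE 0.22, adjusted p 0.0447). The P4ha1 call was lost without high-fat diet 1 (0.0574) or high-fat diet 2 (0.0548) and in well 1 (0.0595) or well 2 alone (0.0953), and the P4ha2 call without control 2, control 3 or any 1 of the high-fat diet samples and in either well alone. In capillary-like and lymphatic-like cells P4ha1 rose by 1.71 in each (edgeR adjusted p 0.00389 and 0.00205) and passed under all 10 alternatives run there. Vegfa, itself a hypoxia target, differed by 0.05 in the same endothelial cells.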

How the data were processed

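Droplet single-cell RNA-seq of aorta was analysed in 6 samples, 3 control and 3 high-fat diet. The deposited values are raw UMI counts per gene and cell, and the authors used Cell Ranger 3.0 and mm10, per the submitters' processing notes. The annotation, cell calling and any depth equalisation between wells are not given in the sources used here. Barcode suffixes show that each matrix joins 2 wells. Cells with fewer than 300 genes or at least 20% mitochondrial counts were left out (59413 of 62838 barcodes kept), as were 1027 cells with a simulated-doublet score over 0.25. Cells were clustered on 2000 variable genes, 30 components and 20 neighbours (scikit-learn 1.9.0, igraph 0.11.9), and clusters were named from fixed marker lists, which placed 57040 of 58386 cells. Endothelial cells were clustered again at resolution 0.5 on genes at least 3 times higher there than in every other class.

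Counts were summed per class and sample where at least 20 cells were present, and tested with edgeR 4.0.16 (quasi-likelihood, TMM, no covariate, R 4.3.3) with Benjamini-Hochberg adjustment over all genes that passed its filter on low counts, at a threshold of 0.05. The same scripts were tested on simulated data. Levels are CPM of the sums. Alternatives were DESeq2 1.42.0, other size factors, no filter, other cell filters, single wells, a replicate block and each sample left out. Those for lymphatic-like cells and pericytes, the leave-one-out of the interaction, and those without EC6 or without clusters over 90% of 1 sample were chosen after seeing the data. The 10 genes and the lists were chosen with earlier results of these data known. Named were all 10 members, of each pathway list the genes called, else up to 4 with the smallest p in endothelial cells, and the 3 genes most like each member. Correlations of same-numbered samples' deviations ran from -0.28 to 0.40, and at most 3 of 6 samples correlated best with their own number. Those of number 3 were above 0 in every class checked, from 0.06 to 0.40. Such correlations cannot decide whether the replicate numbers pair the samples, and the main test did not pair them.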

Additional observations from a re-analysis of the deposited data

How the results depend on the processing

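Numbers of genes called depended on the tool, filter and samples, while no member was called by edgeR as first run. Against 29 genes in endothelial cells, DESeq2 called 121, no filter on low counts 183, well 1 alone 0 and well 2 alone 6. Capillary-like cells gave 28, DESeq2 50 and no filter 287. Arterial-like cells gave 5, DESeq2 11 and no filter 46. Against 0 in fibroblasts DESeq2 called 199, no filter 17, well 1 alone 1 and well 2 alone 2. Against 0 in smooth muscle the counts were 91 by DESeq2, 8 with no filter and 8 in well 2. Against 0 in macrophages they were 36, 6 and 6. Lymphatic-like cells gave 37, and 154 with no filter. Pericytes gave 7, and 29 by DESeq2, 143 with no filter and 3 without clusters mostly of 1 sample. A replicate block left 0 genes in endothelial, 7 in capillary-like and 0 in arterial-like cells. Whether the replicate numbers pair the samples could not be decided. With the block, Flt4 in endothelial cells differed by -0.95 (edgeR adjusted p 0.112), and 36 genes were called in lymphatic-like cells and 10 in pericytes.

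With 1 sample left out in turn, counts ran from 0 to 371 in endothelial, 2 to 254 in capillary-like, 0 to 13 in arterial-like and 6 to 232 in lymphatic-like cells, and from 0 to 2 in fibroblasts, 0 to 4 in smooth muscle, 0 to 556 in macrophages, 0 to 15 in pericytes and 0 to 19 for the interaction, where 1 gene was called with all samples. Of 622 values of single genes under alternatives, 549 kept direction and side of the threshold, 39 lost a call, 9 gained one and 25 changed sign.

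Those 25 fell on members whose log2 difference with all samples lay between -0.15 and 0.39. With 1 sample left out in turn, the difference ran in endothelial cells from -0.292 to 0.0753 for Kdr, -0.0321 to 0.294 for Angpt2 and -0.0491 to 0.236 for Tek, and in capillary-like cells from -0.186 to 0.0605 for Kdr, -0.281 to 0.0235 for Flt4, -0.0696 to 0.862 for Angpt2, -0.0850 to 0.0418 for Tek and -0.0251 to 0.170 for Tie1. It ran from -0.209 to 0.110 for Tek in arterial-like cells, from -0.0935 to 0.589 for Vegfa in fibroblasts, from -0.292 to 0.340 for Angpt2 and -0.0698 to 0.229 for Tek in lymphatic-like cells, and from -0.206 to 0.590 for Angpt1 in pericytes. The sign also changed in endothelial cells for Kdr in well 1 (0.00106) and Tie1 in well 2 (0.0391), with no filter for Tek in capillary-like (0.0182) and arterial-like cells (0.0169), and in fibroblasts for Vegfa in well 1 (-0.276) and without clusters mostly of 1 sample (-0.0651).

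Of 80 shares of endothelial cells with a UMI, 16 changed sign (high-fat diet minus control, percentage points). With 1 sample left out they ran from -0.313 to 0.135 for Vegfa, -0.0284 to 0.506 for Vegfc, -2.10 to 3.27 for Kdr, -0.177 to 0.878 for Angpt2 and -0.864 to 2.57 for Tie1. Unthinned they were -1.81 for Kdr, -1.55 for Angpt1, -1.85 for Angpt2, -4.01 for Tek and -5.22 for Tie1, and at 2000 UMIs -0.566 for Angpt1 and -0.301 for Tek. The causes were not tested. Gating each cell by its markers could not be fitted, because control 1 kept no cells under it. In endothelial cells Vegfa rested on 116 UMIs, Vegfc on 296 and Angpt1 on 67, which limits the precision of their values.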

Other observations

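In rare classes with too few cells per sample for the main order, pooled over the 6 samples, Vegfb was at 117 CPM in cardiomyocyte-like cells (124 UMIs), at 73.7 CPM in adipocyte-like cells (161 UMIs) and at 43.8 CPM in skeletal muscle-like cells (84 UMIs). Smooth muscle, the first class in the main order for Vegfb, was at 43.4 CPM as a mean over samples, which is another measure than a pooled value. Vegfa was pooled at 45.0 CPM in epithelial-like cells (109 UMIs) and at 27.5 CPM in adipocyte-like cells (60 UMIs), beside a mean over samples of 23.4 CPM in fibroblasts. Angpt1 was at 20.8 CPM in cardiomyocyte-like cells (22 UMIs). The values of the rare classes are single pooled values with no replicate spread, and the labels name aorta alone as the tissue.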
